A study of Mus musculus with 6 samples.

Results

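The class II and class IV histone deacetylase genes of the mouse are *Hdac4*, *Hdac5*, *Hdac7* and *Hdac9* (class IIa), *Hdac6* and *Hdac10* (class IIb), and *Hdac11* (class IV). These 7 genes, chosen by name, of 23030 RefSeq-supported genes placed on NCBI Build 37 (mm9) were examined for binding of the transcription factor Sox6 and of RNA polymerase II (Pol II). Chromatin came from wild type C57BL/6 fetal limb myoblasts (E18.5, 17 passages) that had been held for 48 hours in DMEM with 2% horse serum to form myotubes, and was fixed with disuccinimidyl glutarate and formaldehyde. Sox6 was immunoprecipitated with a polyclonal antibody and Pol II with a monoclonal antibody to its carboxy-terminal repeat. Each was done in 2 independent experiments, with a sequenced input for each, which gave 6 libraries in 3 groups. There was no Sox6-deficient chromatin among them, and all groups share genotype, age and culture, so each comparison is between a ChIP and input.

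Histone deacetylases remove acetyl groups from lysines. The class IIa enzymes have little activity of their own on acetylated histones. They bind Mef2 transcription factors on DNA, bring in corepressor complexes that carry Hdac3, and leave the nucleus bound to 14-3-3 proteins once kinases such as the CaM kinases have phosphorylated them. In skeletal muscle this circuit holds back Mef2-dependent genes during differentiation and couples nerve activity to fiber genes, and a splice form of Hdac9 that lacks the catalytic domain is known there. Of the class IIb enzymes, Hdac6 acts largely on tubulin in the cytoplasm and Hdac10 on polyamines. Hdac11 is the only class IV enzyme and removes fatty acyl groups from proteins.

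The ChIP libraries hold between 1468604 and 2985437 mapped reads and the inputs 21973495 and 24249850, so a window of 1 kb often held fewer than 10 ChIP reads, and ratios at single start sites are imprecise. They are also raised where reads are few, because the 0.5 reads added to each count weigh more in the shallower ChIP libraries. The *Hbb-b1* start, with 0 reads in every ChIP library, had log2 ratios of 0.57 for Pol II and 0.55 for Sox6. All 10 myotube marker genes and the 4 testable myoblast markers had more Pol II than input at their start sites, beside 47.1% of all genes tested. So did 0 of 6 fibroblast, 0 of 3 endothelial and 1 of 3 blood (*Cd68*) markers that could be tested. Over gene bodies all 10 myotube markers were again higher, whereas of the 5 myoblast markers 2 were higher and 3 lower (median log2 ratio -0.68, *Top2a* at -1.11). The start of *Actb*, a scale for strong transcription, held 35.1 and 39.1 reads per kb per 1000000 mapped reads (RPKM) in the 2 Pol II libraries. Bins of 10 kb away from genes took 10.4% and 9.87% of the Pol II reads and 28.6% and 27.7% of the input reads. Scaling to those bins instead of to mapped reads therefore moved the median Pol II log2 ratio of all gene bodies from 0.12 to 1.59. A lower ratio to input is relative to the genome-wide average of Pol II and does not mean less than background. In this bulk material, binding in fewer cells and weaker binding in each cell cannot be told apart.

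Sox6 peaks were deposited as 1 list for each replicate and 1 list of the peaks common to both. Common peaks lay in or within 20 kb of 2 of the 7 genes, *Hdac9* and *Hdac11*, and of 4.36% of all genes. This count takes no account of gene length, and a longer gene has more room for a peak. In the annotation *Hdac9* spans 481.304 kb, *Hdac4* 215.637 kb and *Hdac11* 18.028 kb. Another common peak lay farther out, upstream of *Hdac4*. The common peak of *Hdac11* (chr6:91106202-91106341) was centred 388 bp upstream of the start site. That of *Hdac9* (chr12:35213862-35213941) was centred 147 bp upstream of the start of the short model of the gene, at position 35213754. The *Hdac4* peak (chr1:94112002-94112161) was intergenic. Its centre was 35.163 kb upstream of the start given by RefSeq, at 94076918, and 67.111 kb from the gene as the annotation used here draws it. Because these windows carry the finding, their sequences are given (201 bp around each centre, on the strand of the gene, 5′ to 3′, genome sequence of Build 37). Capitals mark the Sox motif letters ACAAAG and ACAATG on either strand. The windows are chr6:91106171-91106371 (plus strand), chr12:35213801-35214001 (minus strand) and chr1:94111981-94112181 (minus strand).
Hdac11 upstream window: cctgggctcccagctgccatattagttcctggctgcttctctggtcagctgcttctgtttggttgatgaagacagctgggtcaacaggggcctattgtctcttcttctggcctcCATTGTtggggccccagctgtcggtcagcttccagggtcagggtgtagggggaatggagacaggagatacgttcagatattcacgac
Hdac9 upstream window: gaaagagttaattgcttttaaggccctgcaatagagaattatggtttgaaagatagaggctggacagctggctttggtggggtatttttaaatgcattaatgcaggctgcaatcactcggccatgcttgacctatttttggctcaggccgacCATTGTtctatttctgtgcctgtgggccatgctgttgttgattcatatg
Hdac4 distal window: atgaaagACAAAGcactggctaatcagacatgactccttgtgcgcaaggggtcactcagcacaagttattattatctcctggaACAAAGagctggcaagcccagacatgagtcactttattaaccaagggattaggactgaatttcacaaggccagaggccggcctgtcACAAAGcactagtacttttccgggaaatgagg

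The windows differed in their motif content. That of *Hdac11* held 1 ACAATG match, whose middle lay 17 bp from the peak centre, 4 matches to the E-box letters CAGCTG and 1 to the MCAT letters GGAATG, which 28.4% of windows held. Of all 1066 common peak windows of this length, 36.9% held ACAATG and 53.5% held CAGCTG, while 4 or more CAGCTG matches occurred in 2 windows (0.188%). The *Hdac9* window held 1 ACAATG, 1 CAGCTG and 1 match to the Runx letters CCACA. The first pair occurred together in 20.7% of windows, and CCACA in 68.9%. The *Hdac4* window held no E-box match but 3 ACAAAG matches, a number reached in 4 of the 1066 windows (0.375%). All letters were sought on both strands, the counts of 3 and 4 matches were singled out after they had been seen, and a match describes letters and not a bound site. A MEF2 match, present in 4.97% of common windows, lay in the *Hdac11* window of the replicate 2 peak (centre 91106401) and in none of these 3 windows.

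The study had designed amplicons at the *Hdac9* and *Hdac11* peaks for ChIP-qPCR, and both primer pairs matched the genome once. Their sequences show where the amplicons lie, and the values of that assay are not used here.
Hdac9 forward primer: agaacaatggtcggcctgag
Hdac9 reverse primer: gctggctttggtggggtatt
Hdac11 forward primer: cccattcccttcacatgacc
Hdac11 reverse primer: ccagagaagcagccaggaac

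The *Hdac9* amplicon (chr12:35213841-35213935) covered 74 bp of the common peak and contained the ACAATG match of the printed window, which lies outside the interval of that peak. The *Hdac11* amplicon (chr6:91106143-91106214) shared 13 bp with the common peak, at its upstream end, and ended before the ACAATG match. Reads with their 5′ end inside the *Hdac11* amplicon were 19 and 7 for Sox6 and 1 and 1 for input. Inside the *Hdac9* amplicon they were 1 and 3 for Sox6 and 3 and 1 for input. The Hdac11 fragment that the study cloned upstream of a reporter (chr6:91105776-91106822, from position -883 to 163 relative to the start) covered the whole common peak.

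*Hdac11* carried one of the strongest Sox6 signals in these libraries. In 450 bp around the centre of its common peak there were 86 and 67 Sox6 reads, against 14 and 20 input reads from libraries many times as deep. Scaled to depth these were 28.8 and 45.6 reads per 1000000 mapped reads (RPM) for Sox6, and 0.637 and 0.825 for input. Both Sox6 libraries were far above both inputs. The log2 ratio was 5.61 ± 0.44 (SE, n = 2 libraries in each group), the percentile 98.5 among the common peaks, whose median was 3.52. The peaks were called on these reads, so 96.7% of the common peaks, and all 3 described here, passed the test against input and the ratios serve as a description. Reads of the plus and minus strands were offset around the centre by 165 and 167 bp in the 2 Sox6 libraries, and the 86 and 67 reads came from 78 and 59 distinct positions.

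**Figure D1:**
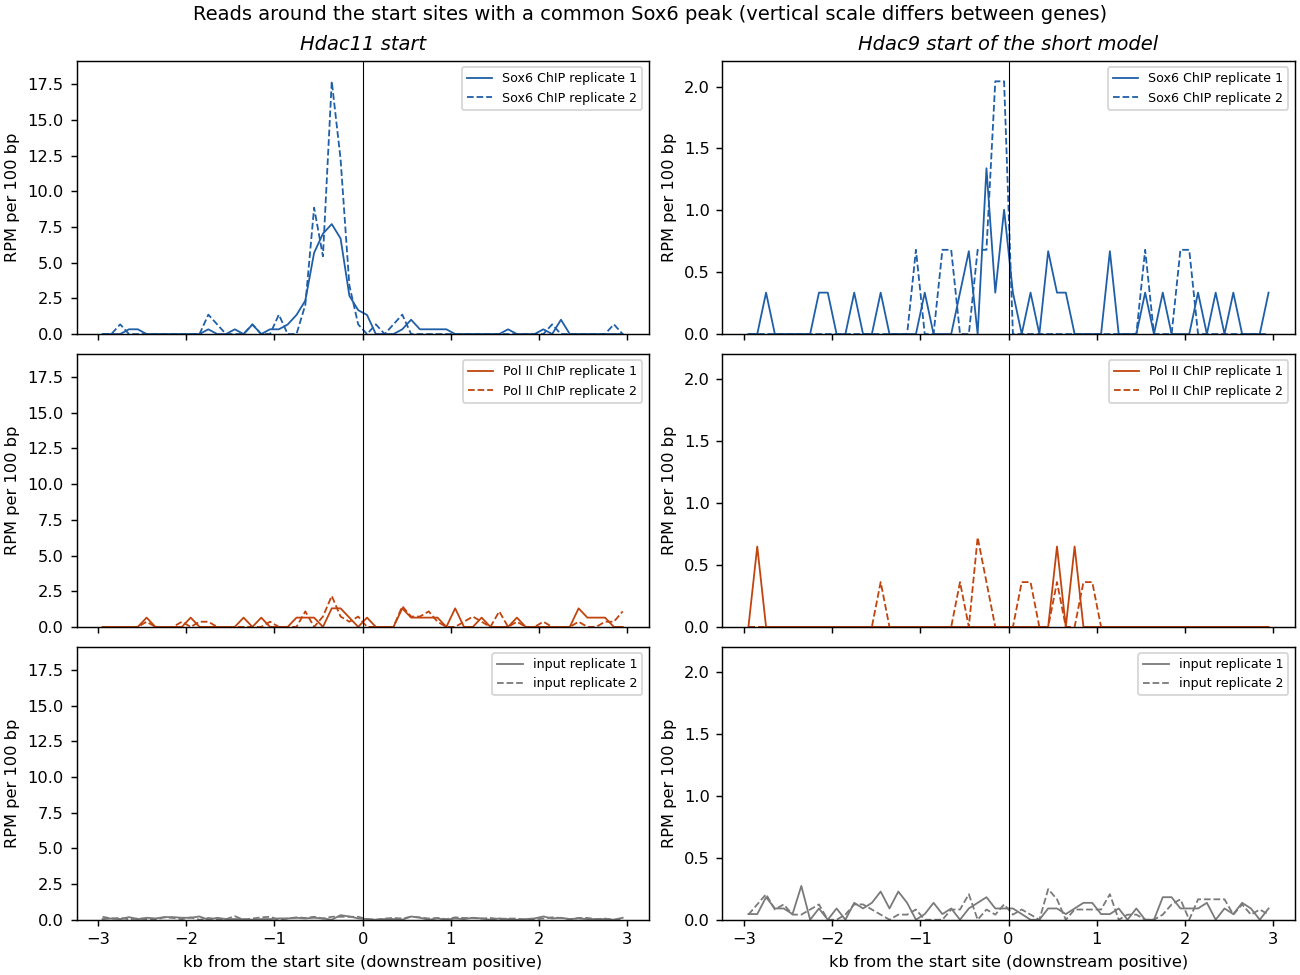
RPM in bins of 100 bp within 3 kb of the start sites of *Hdac11* and of the short *Hdac9* model, for the Sox6, Pol II and input libraries (solid line replicate 1, dashed line replicate 2, vertical scale set for each gene). At both genes the highest bins of each Sox6 library lie just upstream of the start, well above the input at *Hdac11* and on few reads at *Hdac9*.

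The peaks of *Hdac9* and *Hdac4* were smaller. At *Hdac9* the Sox6 libraries held 9 and 7 reads (3.01 and 4.77 RPM) and the inputs 12 and 7 (0.546 and 0.289 RPM), a log2 ratio of 3.26 ± 0.56 (SE, n = 2). At the distal *Hdac4* peak there were 9 and 13 Sox6 reads (3.01 and 8.85 RPM) against 13 and 12 input reads (0.592 and 0.495 RPM), also a log2 ratio of 3.26, ± 0.47. Both ratios lay below the median of the common peaks. The Sox6 and input libraries did not overlap at either peak, but the peaks were called on these reads, so this is no independent support.

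The lists of single replicates added peaks at *Hdac4* and *Hdac11*. They held 4 peaks of replicate 1 and 4 of replicate 2 in or within 20 kb of a deacetylase gene, again at *Hdac4*, *Hdac9* and *Hdac11* in each list, which is 3 of 7 genes beside 9.70% and 6.71% of all genes. These counts, too, take no account of gene length. For each peak of a list, reads of the other replicate were compared with the input of the same number, a pairing that was not established. The test was a two-sided exact binomial test, with Benjamini-Hochberg adjustment over the list. The test treats reads as independent, so its p-values reflect counting error alone. Of the replicate 1 peaks 3 of 4 were above input in replicate 2 (67.0% of the whole list), and of the replicate 2 peaks 2 of 4 were above input in replicate 1 (84.4% of the list). The *Hdac11* promoter and the *Hdac9* start were called in both replicates, so that passing there, in either direction, is no independent support.

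Another *Hdac11* peak that passed this exact test, called in replicate 1 alone, lay 9.275 kb beyond the end of the gene (chr6:91133912-91134011), with 9 and 6 Sox6 reads against 16 and 15 input reads (adjusted p = 0.00199). Over the deposited interval, where only 5′ ends inside it count, it did not pass, with 1 read of replicate 2. The others did not pass. These were an *Hdac11* peak 19.118 kb upstream (chr6:91087512-91087571, 6 and 8 Sox6 reads), and *Hdac4* peaks in introns at chr1:93843872-93844451 (18 and 3 Sox6 reads) and chr1:93871012-93871091 (4 and 9 Sox6 reads). In both *Hdac4* peaks most reads came from the library that called the peak. A further replicate 2 peak (chr1:94073872-94073931) lies outside the annotated *Hdac4* gene but 3.017 kb downstream of its RefSeq start, with 8 and 7 Sox6 reads, and passed in replicate 1 (adjusted p = 3.81e-04, exact binomial test), though not over the deposited interval, with 2 reads. The first of the intronic *Hdac4* peaks passed over its deposited interval, with 5 reads of replicate 2, and the upstream *Hdac11* peak with repeated positions counted once, with 6 reads of replicate 1. The nearest Sox6 peak to *Hdac5* in any list lay 28.025 kb away, and no list had one in or within 20 kb of *Hdac5*, *Hdac6*, *Hdac7* or *Hdac10*.

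**Figure D2:**
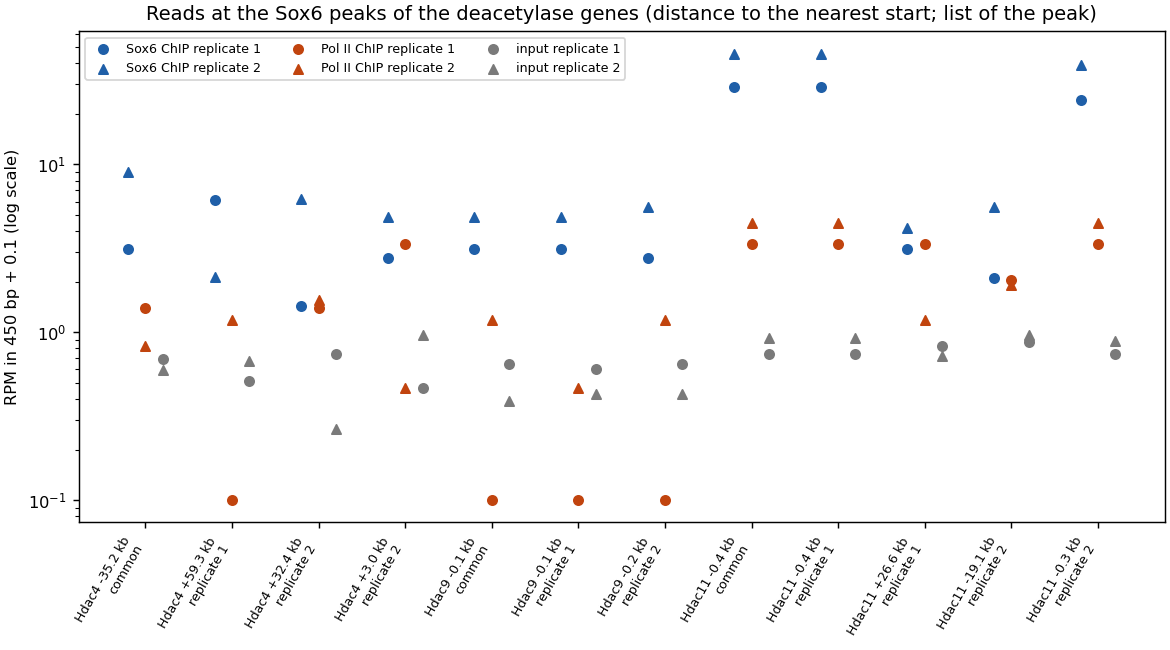
RPM in 450 bp around each Sox6 peak of the deacetylase genes, plus 0.1, on a log axis, with circles for replicate 1 and triangles for replicate 2. The label gives the distance to the nearest start site and the list that holds the peak. The *Hdac11* promoter peak stands above all others, with 28.8 and 45.6 RPM in the Sox6 libraries.

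The start sites were then compared regardless of peak lists, with reads counted within 500 bp on either side of the start of the longest gene model and fitted with limma over all genes. *Hdac11* had 82 and 62 Sox6 reads (27.4 and 42.2 RPKM) against 19 and 30 input reads (0.864 and 1.24 RPKM). Its log2 ratio of 5.02 ± 0.24 (SE, n = 2) ranked 2 of 18834 genes tested, behind *Six2* at 5.79, and its limma adjusted p was 1.26e-94. The window contains the common peak, so this p-value reuses reads that called the peak and is no independent support. *Hdac11* was the only one of the 7 genes called at this start, beside 2.22% of all genes, and the members' median log2 ratio was 0.97, against 0.63 over all genes. When the added value was made equal in RPM across libraries the ratio was 4.64 and its adjusted p 0.573, a setting in which 0 genes were called at all, while over all alternatives its ratio kept its sign. At *Hdac5* the Sox6 reads were 3 and 2 against 3 and 12 input reads, a log2 ratio of 2.30 ± 0.85 (adjusted p = 0.131). The gene passed when either Sox6 library was left out (2.57 without replicate 1 and 2.03 without replicate 2). The lone library is then assumed to vary as the inputs do.

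*Hdac9* depended on which start was used. At the start of its longest model (position 35058985) there were 2 and 1 Sox6 reads against 11 and 15 input reads, a log2 ratio of 0.68 ± 0.78. At the start of the short model (35213754), whose window contains the common peak, there were 14 and 8 Sox6 reads against 18 and 21 input reads, a log2 ratio of 2.62 ± 0.42 (limma adjusted p = 3.89e-07). Reads that called the peak enter this test too, so its p-value is no independent support. The far upstream RefSeq start (35601767) held 1 and 1 Sox6 reads. Every start site of the 7 genes was added to the table of all genes after the data had been seen, and those called for Sox6 were the outer start of *Hdac11* and that of the short *Hdac9* model.

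Over gene bodies, from 500 bp after the start to the end of the gene, Sox6 reads exceeded input slightly at 3 of the 7 genes, *Hdac5*, *Hdac7* and *Hdac4*, beside 5.29% of all genes. *Hdac5* had 0.856 and 1.28 RPKM of Sox6 against 0.557 and 0.598 of input, a log2 ratio of 0.86 ± 0.19 (limma adjusted p = 0.0328). *Hdac7* had 0.679 and 0.716 against 0.396 and 0.406 RPKM, a log2 ratio of 0.81 ± 0.14 (adjusted p = 0.0174), and *Hdac4* 0.993 and 1.10 against 0.731 and 0.741 RPKM, a log2 ratio of 0.51 ± 0.08 (adjusted p = 0.0164). These are differences below 1 on the log2 scale without a called promoter peak. The calls of *Hdac5* and *Hdac7* were lost without input replicate 1 (0.81 and 0.79), that of *Hdac7* also without input replicate 2 (0.82), and with an added value equal in RPM none of the 3 was called, at ratios from 0.51 to 0.85. *Hdac9* had a log2 ratio of -0.37 ± 0.10 (adjusted p = 0.0527), called without either Sox6 library (-0.43 and -0.32) and with the replicate number as a block. *Hdac11* was called without Sox6 replicate 1 (0.68) and had 0.35 ± 0.23 with both. Its body therefore did not share the height of its promoter.

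Pol II was examined at the same places. At start sites 5 of the 7 genes had more Pol II than input, beside 47.1% of all genes tested, with a median log2 ratio of 2.16 among the deacetylases and 1.41 over all genes. When scaled to background reads 6 of 7 were called, beside 71.0%. *Hdac10* and *Hdac11* passed on the most reads, *Hdac5*, *Hdac6* and *Hdac4* on few, and *Hdac9* and *Hdac7* did not pass.

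In class IIa, the *Hdac5* start (chr11, position 102091486) held 1 and 6 Pol II reads (0.649 and 2.17 RPKM) against 3 and 12 input reads (0.136 and 0.494 RPKM), a log2 ratio of 2.40 ± 0.80 (limma adjusted p = 0.00672). *Hdac4* (chr1, 94044970) held 2 and 6 Pol II reads against 15 and 17 input reads, a log2 ratio of 1.45 ± 0.57 (adjusted p = 0.0229). The reads at both starts are few. The *Hdac5* call was lost without input replicate 1 (1.56), with 1000 bp on each side (0.65) and with an added value equal in RPM (1.34). That of *Hdac4* was lost without Pol II replicate 2 (1.19), without either input (1.44 and 1.47), with 250 bp on each side (1.16), with voom weights (1.49) and with an added value equal in RPM (0.99). *Hdac7* (chr15, 97674933), which is best known from developing vessels and thymocytes, held 1 and 0 Pol II reads against 9 and 7 input reads, a log2 ratio of 0.20 ± 0.90. *Hdac9* held 2 and 1 against 11 and 15 at its longest model, a log2 ratio of 0.70 ± 0.75. For both of them the Pol II and input libraries overlapped. With only Pol II replicate 1 kept the ratios were 1.41 (*Hdac7*) and 1.49 (*Hdac9*), both called, and with only replicate 2 they were -1.01 and -0.09.

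The alternative starts of the class IIa genes showed where Pol II lay. In *Hdac5*, the internal start at 102080242 held 13 and 17 Pol II reads (8.45 and 6.15 RPM) against 13 and 14 input reads (0.592 and 0.577 RPM), a log2 ratio of 3.62 ± 0.41 (limma adjusted p = 5.75e-17), and the most 3′ start at 102057882 held 6 and 13 (3.25 ± 0.50). Both held more Pol II reads than the outer start in each library. The most 3′ start, with 3.90 and 4.71 RPM, did not stand out from the gene around it. The last of 10 equal parts of *Hdac5*, which contains it, had 4.36 and 3.75 RPKM. In *Hdac4*, the RefSeq start at 94076918 held 1 and 11 Pol II reads against 6 and 4 input reads, a log2 ratio of 3.10 ± 0.78 (adjusted p = 2.41e-04). Nearly all of that signal came from Pol II replicate 2. At the *Hdac9* start beside the Sox6 peak there were 0 and 5 Pol II reads against 18 and 21 input reads, a log2 ratio of -0.10 ± 0.70 (adjusted p = 0.944), so no difference from input was detectable there at this depth.

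In class IIb, *Hdac10* (chr15, 88959130) held 12 and 11 Pol II reads (7.79 and 3.98 RPKM) against 23 and 14 input reads (1.05 and 0.577 RPKM), a log2 ratio of 2.86 ± 0.41 (limma adjusted p = 3.69e-11). It lay within the sum of the SEs of *Hdac11* and *Hdac5*, and without Pol II replicate 1 it was 2.38, below *Hdac5* (3.04) and *Hdac11* (2.58). *Hdac6* (chrX, 7525015) held 2 and 3 Pol II reads against 8 and 6 input reads, a log2 ratio of 2.16 ± 0.79 (adjusted p = 0.0146), a call lost without either input replicate (2.42 and 1.89), with 1000 bp on each side (1.21) and with an added value equal in RPM (1.27).

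*Hdac11*, in class IV, held 8 and 17 Pol II reads at its start (5.19 and 6.15 RPKM) against 19 and 30 input reads, a log2 ratio of 2.49 ± 0.39 (limma adjusted p = 8.63e-10). The call stood without each library in turn (2.23 to 2.74). Sox6 and Pol II were thus both above input at this start. Pol II was alike at the second *Hdac11* start, at 91107391, whose window overlaps the first, with 8 and 14 reads and a log2 ratio of 2.47 ± 0.40. Sox6 held 8 and 3 reads there and was not called (limma adjusted p = 0.103). Pol II in 450 bp around its Sox6 peak was 5 and 12 reads, a log2 ratio of 2.43 ± 0.48, which passed the test, as 58.8% of the common peaks did. Around the *Hdac9* peak it was 0 and 3 reads, 0.61 ± 0.90 (adjusted p = 0.575), and around the *Hdac4* peak 2 and 2 reads, 1.11 ± 0.71 (adjusted p = 0.166).

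**Figure D3:**
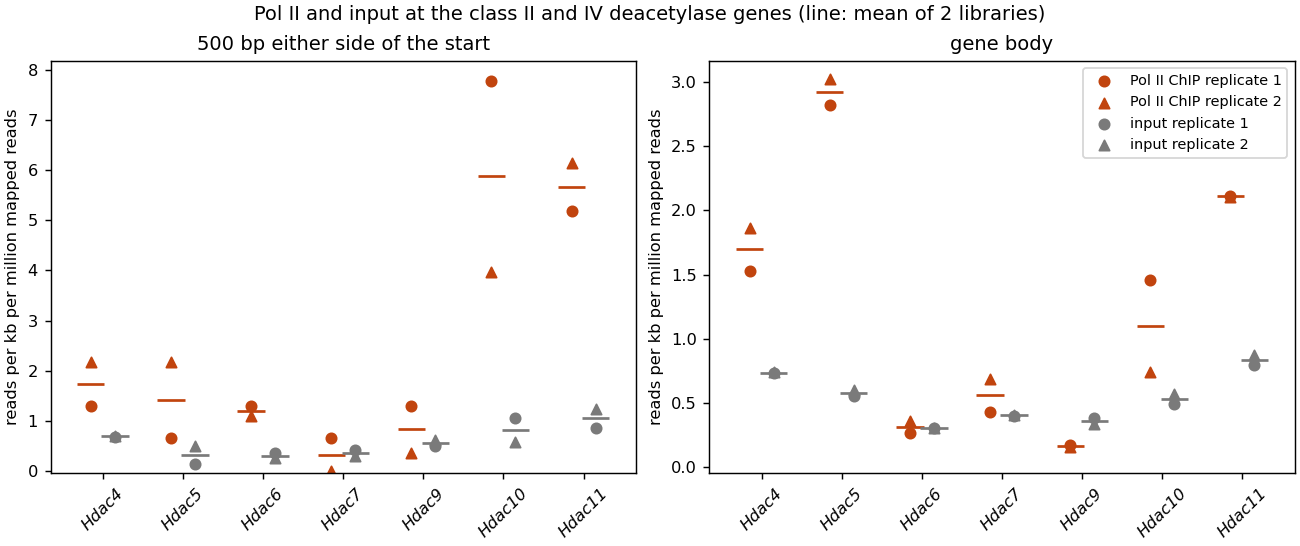
Pol II and input RPKM of the 7 genes within 500 bp of the start (left) and over the gene body (right), with circles for replicate 1, triangles for replicate 2 and a line at their mean. *Hdac10* and *Hdac11* are highest at the start, and *Hdac5* is highest over the body at 2.82 and 3.02 RPKM.

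Over gene bodies, where reads are more numerous, 4 of the 7 genes had more Pol II than input and 1 had less, beside 37.6% and 25.5% of all genes. *Hdac5* had 2.82 and 3.02 RPKM of Pol II against 0.557 and 0.598 of input, a log2 ratio of 2.34 ± 0.11 (limma adjusted p = 1.78e-07), and ranked 1264 of 20125 genes. *Hdac11* had 2.11 and 2.11 RPKM against 0.794 and 0.875, a log2 ratio of 1.35 ± 0.13 (adjusted p = 2.38e-05). *Hdac4* had 1.53 and 1.87 RPKM against 0.731 and 0.741, a log2 ratio of 1.20 ± 0.09 (adjusted p = 5.06e-06). For these 3 genes the call stood without any one library. *Hdac10*, a short gene of 5.394 kb, had 1.46 and 0.740 RPKM on 11 and 10 reads, a log2 ratio of 1.03 ± 0.40 (adjusted p = 0.0481). That call was lost without Pol II replicate 1 (0.55), without either input (0.94 and 1.13), without the filter on low counts (1.03), with voom weights (0.93) and with an added value equal in RPM (0.90).

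*Hdac7* had 0.430 and 0.684 RPKM of Pol II against 0.396 and 0.406 of input, a log2 ratio of 0.45 ± 0.20 (limma adjusted p = 0.0794). The gene passed without Pol II replicate 1 (0.78), with voom weights (0.54) and with 2 reads added (0.49). Its 3′ end, at 97623095, overlaps only the last bases of *Slc48a1*, which ends at 97623123 and had 0.829 and 1.25 RPKM. Other annotated transcripts inside these genes are *Gm17532* in *Hdac7*, *Gm17418* in *Hdac4* and *Gm14573* in *Hdac11*, whose reads cannot be told apart from those of the deacetylase gene. With the replicate number as a block, *Hdac7* had an adjusted p of 0.0113. *Hdac6* had 0.263 and 0.356 RPKM against 0.306 and 0.303, a log2 ratio of 0.07 ± 0.28 (adjusted p = 0.839), and its groups overlapped. *Hdac9* was the gene below input, with 0.171 and 0.155 RPKM against 0.379 and 0.338 and a log2 ratio of -1.13 ± 0.10 (adjusted p = 1.06e-05). That body is of the longest annotated model and leaves out nearly all of the short model. Counted from the start of the short model to the end of the gene, in a table extended after the data had been seen, Pol II was 0.251 and 0.241 RPKM against 0.429 and 0.386, a log2 ratio of -0.72 ± 0.08, which was 0.75 scaled to background reads. Scaled to background reads the ratio of the longest model turned to 0.35 and all 7 bodies were called higher, beside 66.9% of all genes. The direction of *Hdac9* against input thus depended on the scaling.

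On the scale of RPKM the order of Pol II over bodies was *Hdac5*, *Hdac11*, *Hdac4*, *Hdac10*, *Hdac7*, *Hdac6*, *Hdac9*, and the 2 libraries of each gene did not overlap those of its neighbour in this order. On the scale of the log2 ratio to input, *Hdac11*, *Hdac4* and *Hdac10* lay within the sum of their SEs. So did *Hdac10* and *Hdac7*, and *Hdac7* and *Hdac6*. The members' median log2 ratio was 1.03, against 0.12 over all genes.

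**Figure D4:**
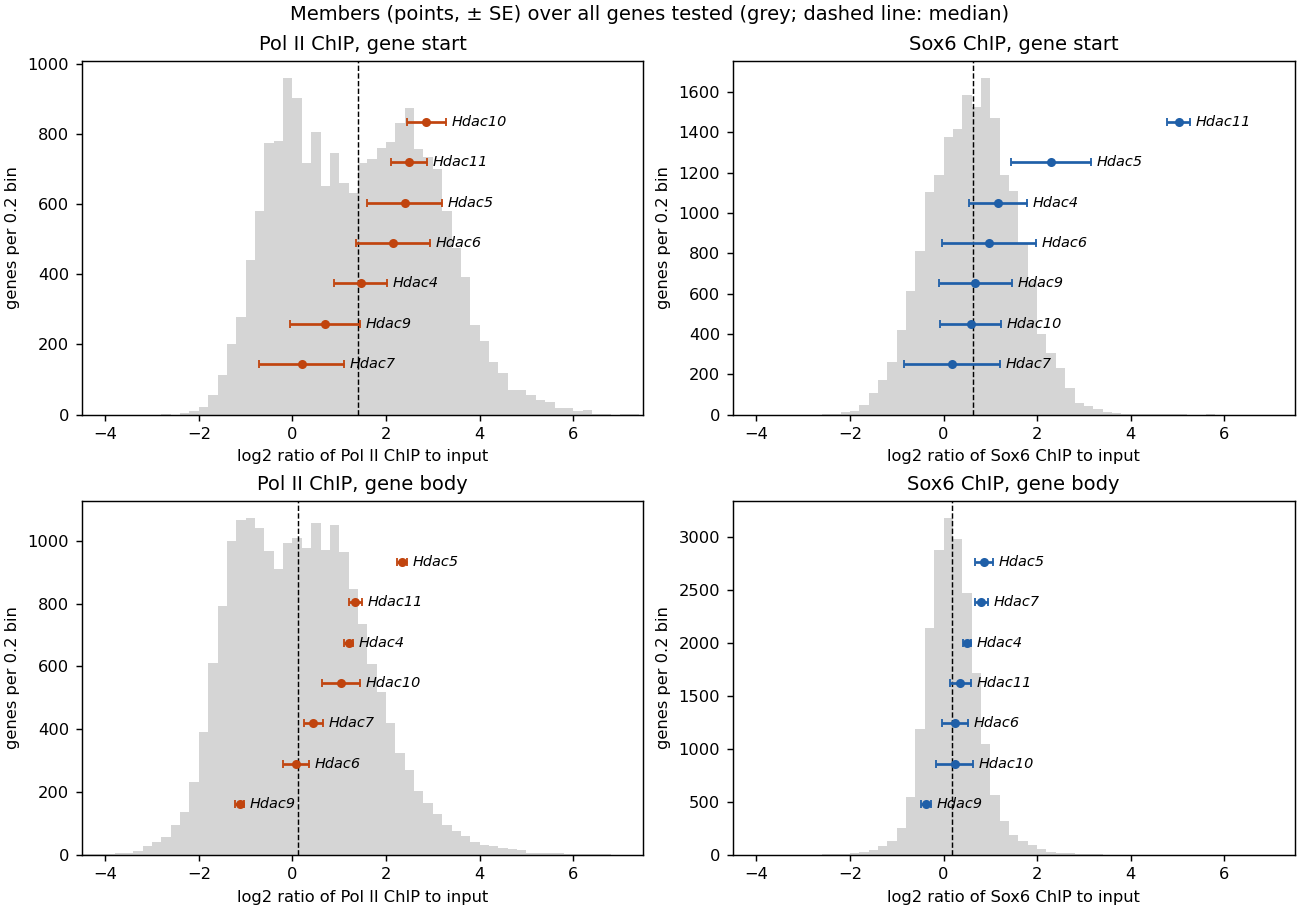
Log2 ratios of Pol II (left) and Sox6 (right) to input at gene starts (top) and over gene bodies (bottom), with all genes tested as grey histograms, a dashed line at their median and the 7 genes as points ± SE. *Hdac11* stands at the right end of the Sox6 start panel at 5.02, and *Hdac9* lies farthest left in the Pol II body panel at -1.13, a value that turned to 0.35 when scaled to background reads.

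Pol II was not spread alike along the genes. With each gene divided into 10 equal parts from its most 5′ start, *Hdac5* was highest in the fourth (4.91 and 4.86 RPKM), the part with the internal start at 102080242. In replicate 1 it was lowest in the first part (0.182 RPKM, on 1 read). In replicate 2 it was lowest in the second (1.11 RPKM), with 1.72 RPKM in the first. *Hdac4* was nearly even, between 1.26 and 2.08 RPKM in all parts and both libraries. *Hdac11* had 3.97 and 4.02 RPKM in the first, 2.88 and 4.22 RPKM in the fourth, above the first in replicate 2, and 1.80 and 1.61 RPKM in the last.

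*Hdac9* spans several models, and its segments were set after the profile had been seen, so they are described without a test. From the far RefSeq start to the short model start Pol II was 0.161 and 0.129 RPKM, over the short model (chr12:35056368-35213754) 0.413 and 0.421 RPKM, and beyond its end 0.173 and 0.155 RPKM. Input in the same order was 0.483 and 0.421, 0.536 and 0.488, and 0.378 and 0.337 RPKM. The ratio of Pol II to the input of the same number was accordingly 0.771 and 0.862 over the short model, and between 0.306 and 0.460 on both sides of it. The annotation does not say whether the short model is the form without the catalytic domain.

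**Figure D5:**
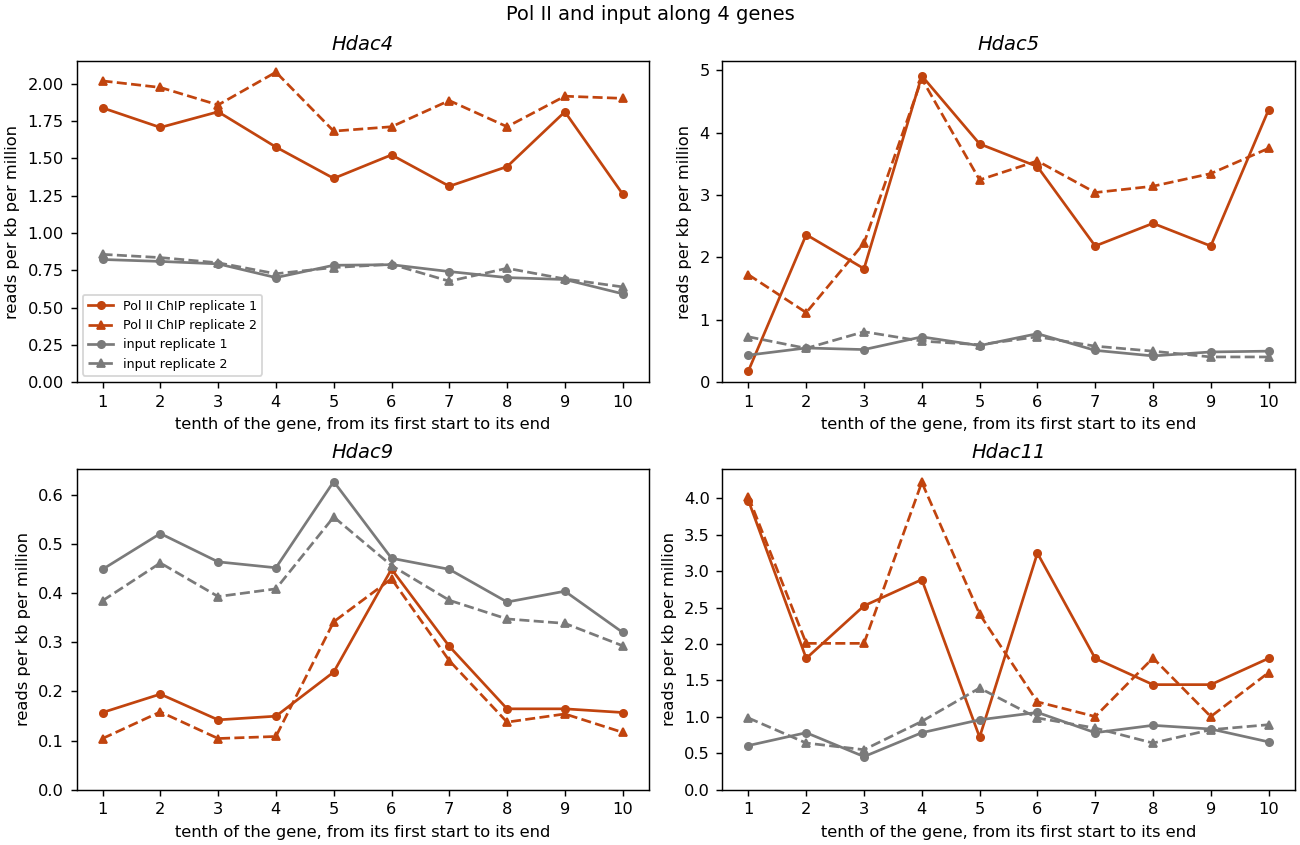
Pol II and input RPKM in 10 equal parts of *Hdac4*, *Hdac5*, *Hdac9* and *Hdac11*, from the most 5′ start to the end of each gene (circles and solid lines replicate 1, triangles and dashed lines replicate 2). *Hdac5* peaks in the fourth part in both Pol II libraries, and *Hdac9* has its highest Pol II in the sixth, at 0.449 and 0.429 RPKM.

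The deposited Pol II peak lists named 3 of the 7 genes in replicate 2, *Hdac4* with 5 peaks, *Hdac5* with 5 and *Hdac11* with 2, beside 21.1% of all genes. The list of replicate 1 named *Hdac5* with 2 peaks and *Hdac11* with 1, beside 15.3%, and these are the genes with a peak present in both lists (9.64%). The widest *Hdac4* peak (chr1:94077171-94077691) lay just upstream of the RefSeq start and held 1 and 13 Pol II reads. Within their deposited intervals the other 4 *Hdac4* peaks held between 1 and 6 reads of replicate 2, the library that called them. The *Hdac5* peaks held 2 and 1 reads of replicate 1 in its own list, and between 1 and 5 of replicate 2 in the other. At *Hdac11* a peak of each list (chr6:91106271-91106331 and chr6:91106191-91106271, which share only position 91106271) overlapped the common Sox6 peak, with 0 and 1 reads of the library that called it. All these numbers count only 5′ ends inside narrow intervals and leave out reads that flank them, so they are not the reads behind a call. In 450 bp around the common Sox6 peak of *Hdac11* there were 5 and 12 Pol II reads. *Hdac10* had no called Pol II peak.

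Genes that work with these deacetylases were described from lists by Pol II at the start. Of the class I deacetylases 2 of 4 passed upward, beside 47.1% of all genes, *Hdac1* (1.30 and 2.53 RPKM, log2 ratio 1.95) and *Hdac3* (1.95 and 3.62 RPKM, log2 ratio 1.66), the latter the enzyme of the NCoR complex. *Hdac2* (1.79) and *Hdac8* (0.26) did not pass. Of the genes of that corepressor complex, *Ncor1* passed at 3.36 and *Gps2* at 2.83. Of the Mef2 partners 3 of 4 passed, beside the same 47.1%, *Mef2a* (5.16), *Mef2d* (4.60) and *Mef2c* (3.25), whereas *Mef2b* had a ratio of -0.05. The medians of the class I and Mef2 lists were 1.73 and 3.92, beside 1.41 over all genes.

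Among the regulators of nuclear export, 5 of 10 kinases passed (*Camk2d* at 3.39, *Prkd2* at 2.94) and 7 of 7 14-3-3 genes, from *Ywhag* at 4.79 to *Sfn* at 2.08, beside 47.1% of all genes. The lowest kinase genes at the start, *Camk2a* (-1.23) and *Camk1d* (-0.32), did not pass. Their bodies differed. *Camk2a* had 3.13 and 3.02 RPKM of Pol II against 0.590 and 0.637 of input over its body, a log2 ratio of 2.33, and *Camk1d* had a ratio of -0.89. The class III sirtuins, a separate enzyme family, had 4 of 7, with *Sirt6* at 3.04, while *Sirt1* (0.33) and *Sirt5* (-0.80) did not pass. Of the nerve activity targets known to lie downstream of class IIa deacetylases 6 of 7 passed, from *Myog* at 5.49 to *Fbxo32* at 2.78, and *Gdf5* (-0.74) did not. The medians of the kinase, 14-3-3, sirtuin and nerve activity lists were 1.72, 3.89, 1.90 and 4.72. Common Sox6 peaks lay in or within 20 kb of 4 of the 8 targets listed, *Chrna1*, *Chrnd*, *Chrng* and *Fbxo32*, beside 4.36% of all genes, and of none of the class I deacetylase, Mef2, kinase, 14-3-3 and sirtuin genes listed. A peak within 20 kb of several genes counts for each, so these 4 genes need not stand for 4 separate peaks. Such peaks were not particular to the targets. They also lay in or within 20 kb of 3 of the 10 myotube markers, with *Chrna1* in both lists, and of 1 of the 7 fibroblast markers.

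Over all 12 levels of a gene (log2 RPKM of start and body in 6 libraries), the nearest of 17231 genes lay at a Euclidean distance between 0.88 and 1.27 for 6 of the deacetylases. For *Hdac5* it was *Srf*, a muscle and cytoskeletal transcription factor gene, at 1.27. For *Hdac9* it was *Sclt1* (1.03), for *Hdac4* *Sipa1l2* (0.94), for *Hdac10* *Def8* (1.01), for *Hdac6* *Wbscr17* (1.04) and for *Hdac7* *Rp9* (0.88). *Hdac11* had no close neighbour, the nearest being *Aknad1* at 2.51 and *Abcg2* at 3.60.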

How the data were processed

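Sox6 ChIP, Pol II ChIP and input libraries were grouped by their labels. The authors aligned the reads with Bowtie (version 0.12.5, per the submitters' processing notes) to NCBI Build 37, kept reads that mapped to 1 place, and called peaks with SISSRs against the matching input. Sox6 peaks of both replicates close to each other formed the common list. The deposited read files hold positions, with no counts and no normalization. The deposited score column of the peak lists was not used, and that of the Pol II lists is unnamed. Repeated positions are present and were kept.

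The 7 genes and all gene lists were chosen with earlier results of these data known. Named were all 7 genes, every Sox6 peak in or within 20 kb of them, overlapping genes, up to 4 genes of a list (the highest and lowest Pol II ratios at the start), Actb and the nearest genes by Euclidean distance. *Six2*, *Cd68* and peaks beyond 20 kb were named after their values had been seen. Genes were those with a RefSeq-linked model in the GENCODE annotation of Build 37, the longest model being used. RefSeq promoter sequences, given for all of the 7 genes but *Hdac10* and matched once each in Build 37, placed the further starts of *Hdac4* and *Hdac9*.

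Reads were counted by their 5′ end. Log2 of reads plus 0.5, scaled to mapped reads, was fitted with limma 3.58.1 with an intensity trend (R 4.3.3) for features with at least 10 reads over the 4 libraries compared, each antibody in a fit of its own. Adjustment was by Benjamini-Hochberg over all genes, at 0.05. RPKM and RPM were computed from the same reads and mapped totals. With 2 libraries in each group, limma drew the variance of each gene to a trend over all genes, wholly at start sites, so these p-values rest largely on the pooled spread between libraries and not on that of the single gene. Tables and figures were made with Python 3.11.15, numpy 2.4.6, pandas 2.3.3, scipy 1.17.1 and matplotlib 3.10.9. The fit was tested on simulated data. The alternatives were other windows, pseudocounts, scalings and filters, voom weights, repeated positions counted once, a replicate block and each library left out. Adding every start site of the 7 genes, and bodies from starts upstream of the longest model, was chosen after the data had been seen. Results of a few listed genes are not reported here.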

Additional observations from a re-analysis of the deposited data

How the results depend on the processing

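The numbers of genes called depended strongly on the processing, those for Sox6 most of all. Counts higher than input at starts, for Pol II 8833, were 13305 scaled to background reads and 15615 with 2 reads added. With an added value equal in RPM 6874 were higher and 3160 lower than input, against 14 lower with 0.5 reads added. Over bodies, for Pol II 7576 (5141 lower), scaling to background gave 13466 (194 lower). Sox6 at starts, 419 genes, gave 769 scaled to background, 10424 with 2 reads added, 0 with an added value equal in RPM, 1474 without the filter on low counts, 72 with voom weights, 259 with 250 bp and 75 with 1000 bp on each side, and 3 to 7524 with 1 library left out. Sox6 over bodies, 1066 genes, gave 3230 scaled to background (98 lower, against 349), 2137 with 2 reads added, 0 with an added value equal in RPM and 181 to 7184 with 1 library left out. Pol II at common Sox6 peaks, 623, gave 947 with 2 reads added, 359 over the deposited interval and 302 to 617 with 1 library left out. Over deposited intervals, peaks called against input were 1179 (replicate 1 list) and 753 (replicate 2 list), and those called in the other replicate 902 and 790. Genes with a common Sox6 peak, 1005, were 512 counting peaks inside genes, none of them a deacetylase, 1643 at 50 kb, and 2235 and 1546 with the lists of replicates 1 and 2. Genes with a Pol II peak in both lists were 2219.

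With the replicate number as a block, Sox6 bodies called rose to 2770, and *Hdac7* Pol II (0.45) and *Hdac9* Sox6 (-0.37) over the body were called. Deviations of libraries of the same number correlated at 0.03, 0.03, -0.05 and 0.05 over the 4 comparisons. The sources give each experiment an input of its own but do not state that the number marks the experiment, so whether the numbers pair the libraries was not established.

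Signs turned at genes that were not called, and at the *Hdac9* body. Scaled to background reads, Pol II over *Hdac9* was 0.35. At the *Hdac7* start Pol II was -0.25 with an added value equal in RPM, -0.81 with 1000 bp on each side, -0.11 with 5′ ends moved 75 bp, and -1.01 to 1.41 with 1 library left out. Sox6 there was -0.22, -0.83 and -0.13 under the same settings, and -1.13 to 1.48. At the *Hdac9* start Pol II was -0.043 with 250 bp, -0.068 with 1000 bp, -0.10 at its most 5′ annotated start, and -0.091 to 1.49 with 1 library left out. At the *Hdac9* Sox6 peak it was -0.11 with an added value equal in RPM and -0.37 to 1.60 with 1 library left out. Leaving out 1 library gave -0.12 to 0.26 for Pol II over *Hdac6* and -0.051 to 0.52 for Sox6 over *Hdac10*. The cause was not tested. Of the remaining alternatives for single genes and peaks, 464 kept direction and call, 31 gained a call, 32 lost one, and 1 was the count of the 7 genes with a common Sox6 peak, which was 2 and became 0 with peaks inside genes only. Read number limits most of the 7 starts, which hold under 10 ChIP reads in a library, apart from *Hdac11* for Sox6, *Hdac10* for Pol II and *Hdac11* for Pol II in replicate 2.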
